A study of Mus musculus with 15 samples.

Results

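p53 and 5 genes of its feedback loop were described across 4 genotypes of mouse lineage marker negative bone marrow cells. The members were taken by name as Trp53, Mdm2, Mdm4, Ppm1d, Ccng1 and Trp53inp1, and their symbols were matched to the Ensembl identifiers of the count table with GENCODE vM21. All 6 were found among the 45706 genes listed, and all 6 passed the filter on low counts that left 18983 genes for testing. The study asked how loss of the apoptosis gene Puma (Bbc3) alters hematopoiesis when telomerase is missing. Polyadenylated RNA was sequenced in 15 libraries. WT had 3 of them, while Puma-/-, G3 mTerc-/-Puma+/+ and the group labelled as G3 mTerc-/-Puma-/- had 4 each. G3 marks the third generation of breeding without the telomerase RNA gene mTerc, during which telomeres shorten. LSK cells (lineage negative, Sca1 and Kit positive progenitors) of CD45.2 donors had been passed serially through lethally irradiated CD45.1 recipients in all 4 groups, so WT and Puma-/- cells also went through 2 transplantations. The cells sequenced were lineage depleted with magnetic beads from the femurs of secondary recipients. A sort for donor cells is not given in the sources used here, so cells of the irradiated host may be present.

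p53, encoded by Trp53, is a transcription factor that is held at a low protein level in unstressed cells and is stabilized after DNA damage, including damage signaling from short telomeres. It is regulated mainly at the protein level, and several of the genes it switches on act back on it. MDM2 is the ubiquitin ligase that marks p53 for degradation, MDM4 binds MDM2 and covers the activation domain of p53, the phosphatase WIP1 (Ppm1d) removes activating phosphates from p53 and its kinases, cyclin G1 (Ccng1) brings phosphatase 2A to MDM2, and TP53INP1 (Trp53inp1) is a p53-induced cofactor that promotes p53 phosphorylation and is better known as a positive arm of the loop. RNA levels say nothing of protein level or phosphorylation of these regulators.

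The libraries held between 102790519 and 158367059 reads assigned to genes. Values are given as normalized CPM, reads of a gene scaled to a common library total that was adjusted by the trimmed mean of M-values (TMM). The telomerase RNA gene Terc had 4 to 17 reads in each of the 7 mTerc+/+ libraries and 0 or 1 in each of the 8 mTerc-/- libraries. Bbc3 stood at 5.02 to 6.80 CPM in Puma-/-, against 9.67 to 23.5 CPM in WT and 11.7 to 20.7 CPM in G3 mTerc-/-Puma+/+. In the 4 libraries labelled G3 mTerc-/-Puma-/- it stood at 13.5 to 17.0 CPM, above every Puma-/- library, so this group is called by its label throughout and its Puma genotype was not borne out by Bbc3 reads. Replicate 2 of that group stood apart from all others on the first principal component, at 130 against -36.9 to 17.0, and its 6 erythroid markers summed to 1115 CPM against at most 183 CPM elsewhere. The study did not draw it in its heat maps, so the tests below rest on the other 14 libraries and its values are given separately. Progenitor markers summed to between 8120 and 12971 CPM in the 14 libraries and all 6 were detected. The female transcript Xist and the male gene Ddx3y differed between groups. In the 14 libraries Xist stood at 1.72 to 417 CPM in WT and 464 to 865 CPM in Puma-/-. It stood at 0.176 to 88.6 CPM in G3 mTerc-/-Puma+/+ and 0.386 to 660 CPM in the labelled G3 mTerc-/-Puma-/-. Several libraries held both, such as WT replicate 1 with 417 CPM of Xist and 21.2 CPM of Ddx3y, and the source of this was not tested. All 4 Puma-/- libraries had 2 to 5 Ddx3y reads, the 4 G3 mTerc-/-Puma+/+ libraries had 42.6 to 48.0 CPM, and the other groups lay between 2.87 and 45.9 CPM.

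In the GRCm38 annotation the 6 genes are protein coding, and none shares exonic bases with another gene. Trp53 (ENSMUSG00000059552) lies at chr11:69580359-69591873 on the plus strand, Mdm2 (ENSMUSG00000020184) at chr10:117688875-117710758 on the minus strand, Mdm4 (ENSMUSG00000054387) at chr1:132959484-133030561 on the minus strand, Ppm1d (ENSMUSG00000020525) at chr11:85311244-85347066 on the plus strand, Ccng1 (ENSMUSG00000020326) at chr11:40748552-40755311 on the minus strand and Trp53inp1 (ENSMUSG00000028211) at chr4:11156431-11174379 on the plus strand. Reads of the pseudogenes could be confused with those of their parents, but Trp53-ps had at most 5 reads and Mdm4-ps at most 30 in any library, against at least 20839 for Trp53 and 16533 for Mdm4.

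Promoter windows of 250 bases before and 50 bases after the start site were read from RefSeq (GRCm38.p6) for 5 of the 6 members, Mdm4 with 2 windows. The p53 decamer, a consensus of 10 bases that reads the same on both strands and occurs in pairs in p53 response elements, was searched without mismatch. It occurred in the windows of Trp53 (GGACTTGCCC, 75 bases before the start site), Mdm2 (GAACTTGCCT, 186 bases before), Ppm1d (GAGCTTGCTC, 132 bases before) and Ccng1 (GGGCAAGCCT, 185 bases before), and in neither window of Mdm4. Of 32851 promoters of the same length, 8.36% held a decamer. Adjacent pairs of decamers with at most 2 mismatches, counting only pairs with an intact central C and G in each decamer, were found in 0.326% of the promoters. Ccng1 was the 1 member with such a pair, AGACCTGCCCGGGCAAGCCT at chr11:40755462-40755481, with 1 mismatch. Bases -250 to -51 are shown for Ccng1, the member that changed, and for Mdm2, the core of the loop, because p53 is known to act on both. Capitals mark the pair in Ccng1 (chr11:40755337-40755536, minus strand) and the single decamer in Mdm2 (chr10:117710809-117711008, minus strand).
Ccng1: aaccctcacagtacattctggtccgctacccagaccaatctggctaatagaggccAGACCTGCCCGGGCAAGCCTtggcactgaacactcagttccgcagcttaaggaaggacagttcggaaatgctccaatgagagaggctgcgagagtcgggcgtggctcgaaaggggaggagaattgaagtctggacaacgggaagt
Mdm2: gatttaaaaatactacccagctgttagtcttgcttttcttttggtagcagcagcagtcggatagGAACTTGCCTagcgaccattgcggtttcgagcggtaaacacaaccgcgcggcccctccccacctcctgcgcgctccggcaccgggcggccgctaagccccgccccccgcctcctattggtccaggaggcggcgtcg
A match of letters describes the window and is no evidence of binding. The known p53 response elements of Mdm2 lie in its first intron, outside this window.

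Ccng1 was the 1 member whose RNA differed with telomerase status. Averaged over both Puma labels, mTerc-/- against mTerc+/+ changed it by 0.69 on the log2 scale (SE 0.092, adjusted p = 0.00475, edgeR quasi-likelihood test with Benjamini-Hochberg adjustment over all genes), which is 1.62-fold higher with a 95% interval of 1.41 to 1.86. In the same comparison 1 of 6 members passed the threshold of 0.05, against 0.263% of all genes tested. Of the members, 1 had an unadjusted p under 0.05, against 7.76% of all genes. Trp53 differed by 0.018 (95% interval -0.094 to 0.13), Mdm2 by 0.11 (-0.0038 to 0.22), Mdm4 by 0.021 (-0.16 to 0.20), Ppm1d by 0.051 (-0.064 to 0.17) and Trp53inp1 by 0.12 (-0.24 to 0.49), none past the threshold. When single libraries were left out, Trp53inp1 ran from 0.0055 to 0.22 and Ppm1d from 0.017 to 0.076, and Trp53inp1 was 0.37 with all 15. The intervals of the first 4 thus ended at or below 0.22, whereas that of Trp53inp1 reached 0.49. The median over the 6 members was 0.08 on the log2 scale, beside 0.01 over all genes.

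The pairwise comparisons share their control libraries and are no independent repeats of each other. Against Puma-/-, Ccng1 was the 1 member of 6 that passed in G3 mTerc-/-Puma+/+ (0.801% of all genes) and the 1 of 6 in the labelled G3 mTerc-/-Puma-/- (0.306% of all genes). At an unadjusted p under 0.05 there were 2 members in the first, Ccng1 and Ppm1d, against 17.1% of all genes, and 2 in the second, Ccng1 and Mdm2, against 8.42%. Against WT, 0 of 6 passed in Puma-/- (0.079% of all genes), 0 of 6 in G3 mTerc-/-Puma+/+ (0.0369%) and 0 of 6 in the labelled G3 mTerc-/-Puma-/- (0.0632%) with edgeR. At an unadjusted p under 0.05 these were 1 member each, Ppm1d in the first and Ccng1 in the others, against 10.1%, 3.86% and 5.45% of all genes. The DESeq2 Wald test called Ccng1 in both comparisons of mTerc-/- with WT and no member between Puma-/- and WT, and limma-voom called no member in these 3. Between the mTerc-/- groups 0 of 6 members passed (0.0738% of all genes) and 0 had an unadjusted p under 0.05 (6.22% of all genes) with edgeR. The interaction of mTerc and Puma likewise gave 0 of 6 (0.0527% of all genes), with 0 members at an unadjusted p under 0.05 against 4.93% of all genes. DESeq2 and limma-voom also called 0 members in these last 2.

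**Figure D1:**
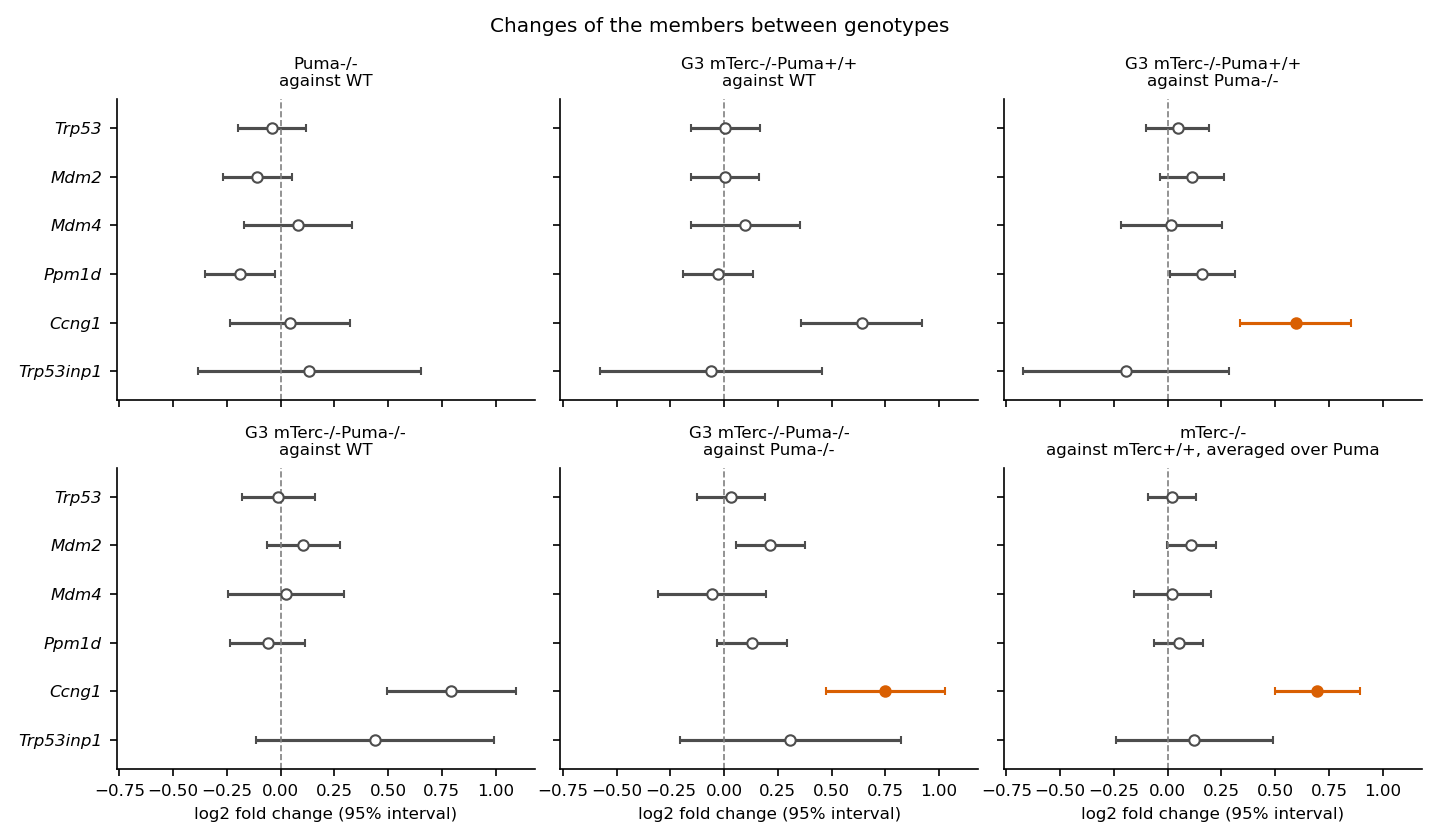
Log2 fold changes of the 6 members (rows) with their 95% intervals in 5 pairwise comparisons and in the comparison of mTerc-/- with mTerc+/+ averaged over Puma. Filled orange points passed the adjusted threshold of 0.05, which Ccng1 did in 3 panels, and open gray points did not.

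Trp53 itself held nearly the same RNA level in every library. It stood at 205, 211 and 221 CPM in WT, at 214, 215, 205 and 191 CPM in Puma-/-, at 219, 219.6, 205 and 209.9 CPM in G3 mTerc-/-Puma+/+, and at 213, 189 and 229.6 CPM in the labelled G3 mTerc-/-Puma-/-. All 4 groups overlapped, and the highest library was 1.21 times the lowest. The SD of its log2 CPM over the 14 libraries was 0.076, lower than in all but 2.53% of genes tested, beside a median of 0.25. Its mean log2 CPM was above that of 96% of these genes, and the SD was not compared with genes of like level. Group means lay between 207 ± 11 (SD, n = 4) in Puma-/- and 213 ± 7.0 (SD, n = 4) in G3 mTerc-/-Puma+/+, and no neighbors in this order differed by an exact two-sided permutation test (lowest p of all 6 pairs 0.40). Wrap53, the antisense neighbor that encodes a telomerase assembly factor, stood at 26.4 to 32.3 CPM in the 14 libraries, and the strand setting of the counting is not given in the sources used here.

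Mdm2, the ligase that closes the loop, varied little. It measured 68.7, 60.7 and 72.0 CPM in WT and 63.4, 63.1, 58.9 and 63.8 CPM in Puma-/-. In G3 mTerc-/-Puma+/+ it measured 66.7, 64.3, 71.4 and 66.9 CPM, and in the labelled G3 mTerc-/-Puma-/- 79.2, 68.7 and 68.9 CPM. On this scale the Puma-/- libraries lay below all libraries of both mTerc-/- groups, where 10.8% and 9.54% of all genes did not overlap, and WT overlapped every group. Scaled by library size alone, Puma-/- overlapped G3 mTerc-/-Puma+/+ (exact permutation p = 0.40) and WT did not overlap the labelled G3 mTerc-/-Puma-/-, so these orders depend on the scaling. The labelled G3 mTerc-/-Puma-/- exceeded Puma-/- by 0.21 (SE 0.074, unadjusted p = 0.0121, adjusted p = 0.408), which did not pass. Over all libraries the 7 mTerc+/+ averaged 64.4 ± 4.5 (SD, n = 7) and the 7 mTerc-/- 69.5 ± 4.8 CPM (SD, n = 7), with an exact permutation p of 0.0694 when labels were exchanged within each Puma label. The interaction was 0.21 (95% interval -0.015 to 0.44, adjusted p = 0.989).

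Mdm4, which encodes the partner of MDM2, showed no order by genotype. Its values were 188, 163 and 148 CPM in WT, 167, 201, 147 and 186 CPM in Puma-/-, 162, 164, 201 and 184 CPM in G3 mTerc-/-Puma+/+, and 184, 165 and 157 CPM in the labelled G3 mTerc-/-Puma-/-. Each group spanned most of the range of the others. The means ran from 166 ± 20.1 (SD, n = 3) in WT to 178 ± 18.5 (SD, n = 4) in G3 mTerc-/-Puma+/+, and the lowest exact permutation p of the 6 pairs was 0.457.

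Ppm1d, which encodes the phosphatase WIP1, had its lowest mean in Puma-/-. It stood at 34.6, 30.9 and 36.2 CPM in WT, at 30.5, 28.0, 30.4 and 30.1 CPM in Puma-/-, at 33.8, 32.1, 33.5 and 33.6 CPM in G3 mTerc-/-Puma+/+, and at 35.5, 30.3 and 31.8 CPM in the labelled G3 mTerc-/-Puma-/-. The 4 Puma-/- libraries lay below all WT and all G3 mTerc-/-Puma+/+ libraries, each with an exact permutation p of 0.0286, the smallest that 4 libraries allow against 3 or 4 here, and overlapped the fourth group. Of all genes, 9.71% did not overlap between Puma-/- and WT and 10.8% between Puma-/- and G3 mTerc-/-Puma+/+. Scaled by library size alone, both pairs of groups overlapped in Ppm1d (exact permutation p = 0.0571 and 0.114). In the fit across all genes the differences did not pass, with -0.19 (SE 0.075, unadjusted p = 0.025, adjusted p = 0.443) for Puma-/- against WT and 0.16 (SE 0.070, unadjusted p = 0.037, adjusted p = 0.257) for G3 mTerc-/-Puma+/+ against Puma-/-.

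Ccng1, which encodes cyclin G1, was higher in every mTerc-/- library than in any mTerc+/+ library. Its values were 64.9, 58.9 and 52.9 CPM in WT and 61.0, 61.5, 58.6 and 61.8 CPM in Puma-/-. They were 89.4, 81.4, 113 and 83.2 CPM in G3 mTerc-/-Puma+/+, and 90.1, 125 and 91.2 CPM in the labelled G3 mTerc-/-Puma-/-. The 7 mTerc-/- libraries thus ranged from 81.4 to 125 CPM and the 7 mTerc+/+ from 52.9 to 64.9 CPM. Of all genes tested, 0.158% showed 7 and 7 libraries that did not overlap, and 0.079% had the mTerc-/- libraries on top. The exact permutation test within Puma labels gave p = 0.000816, the smallest that its 1225 splits allow. 374 of the 18983 genes had a larger fitted increase.

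The step in Ccng1 fell between the 2 mTerc+/+ groups and the 2 mTerc-/- groups. In order of their means the groups were WT at 58.9 ± 6.0 (SD, n = 3), Puma-/- at 60.7 ± 1.5 (SD, n = 4), G3 mTerc-/-Puma+/+ at 91.7 ± 14.5 (SD, n = 4) and the labelled G3 mTerc-/-Puma-/- at 102 ± 19.9 CPM (SD, n = 3). The first and last neighbors overlapped, with exact permutation p of 0.629 and 0.429. The middle neighbors did not (exact permutation p = 0.0286, the smallest that these libraries allow). Between these middle groups 10.8% of all genes did not overlap. Ccng1 rose by 0.59 on the log2 scale in G3 mTerc-/-Puma+/+ against Puma-/- (SE 0.12, adjusted p = 0.0433) and by 0.75 in the labelled G3 mTerc-/-Puma-/- against Puma-/- (SE 0.13, adjusted p = 0.0253). Against WT the values were 0.64 (SE 0.13, adjusted p = 0.276) and 0.79 (SE 0.14, adjusted p = 0.0777), of like size but past no threshold. The mTerc-/- groups differed by 0.16 (95% interval -0.12 to 0.43, adjusted p = 0.945), and the interaction was 0.11 (95% interval -0.28 to 0.50, adjusted p = 0.999).

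Both calls of Ccng1 against Puma-/- were close to the threshold. The one in G3 mTerc-/-Puma+/+ was lost when any single library of the 2 groups was left out (adjusted p 0.0582 to 0.117), with all 15 libraries (0.129) and with the level of Xist as a covariate (0.208). Its size changed little, to 0.60 with all 15 libraries and 0.58 with Xist, against 0.59. The one in the labelled G3 mTerc-/-Puma-/- was lost without any single Puma-/- library or without its own replicate 3 (adjusted p 0.0621 to 0.123) and with Xist as a covariate (0.0913, at a value of 0.73 against 0.75). The averaged call was kept under all 23 alternatives run, with adjusted p between 4.23e-09 and 0.0225. Without replicate 3 of the labelled G3 mTerc-/-Puma-/-, the highest of the libraries used, the averaged value was 0.61. Ccng1 was also among the p53 targets that the study drew from these libraries, so its choice is not independent of them.

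Some marker lists of mature lineages differed between groups. The 6 erythroid markers summed to 42.1 to 183 CPM in the labelled G3 mTerc-/-Puma-/- and to 20.9 to 61.3 CPM in the other groups. The 6 B lymphoid markers summed to 18.6 to 34.0 CPM in mTerc+/+, to 7.42 to 16 CPM in G3 mTerc-/-Puma+/+ and to 29.6 to 85.3 CPM in the labelled G3 mTerc-/-Puma-/-. The 5 megakaryocyte markers summed to 319 to 533 CPM in Puma-/- and to 125 to 277 CPM in the other 10 libraries. Neutrophil markers summed to 2519 to 7064 CPM, T and NK markers to 323 to 518 CPM, macrophage markers to 123 to 299 CPM and immediate early genes to 1171 to 4439 CPM. The part of any of these lists, or of Ddx3y, in the members' levels was not tested, and in bulk RNA fewer cells of a type and less RNA per cell cannot be told apart.

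Trp53inp1, the cofactor, varied widely within groups. It stood at 32.5, 35.9 and 18.8 CPM in WT, at 30.5, 39.1, 23.3 and 34.6 CPM in Puma-/-, at 28.7, 23.1, 33.2 and 26.3 CPM in G3 mTerc-/-Puma+/+, and at 39.8, 50.6 and 27.9 CPM in the labelled G3 mTerc-/-Puma-/-. The groups overlapped in all 6 pairs, with a lowest exact permutation p of 0.143. Within WT alone the highest library was 1.91 times the lowest. The labelled G3 mTerc-/-Puma-/- exceeded G3 mTerc-/-Puma+/+ by 0.50 (SE 0.24, unadjusted p = 0.0542, adjusted p = 0.803), which did not pass. This value ran from 0.28 to 0.70 when single libraries were left out and was 0.99 with all 15. The SD of its log2 CPM over the 14 libraries, 0.37, was close to that of Ccng1, 0.39, but without a step between groups.

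**Figure D2:**
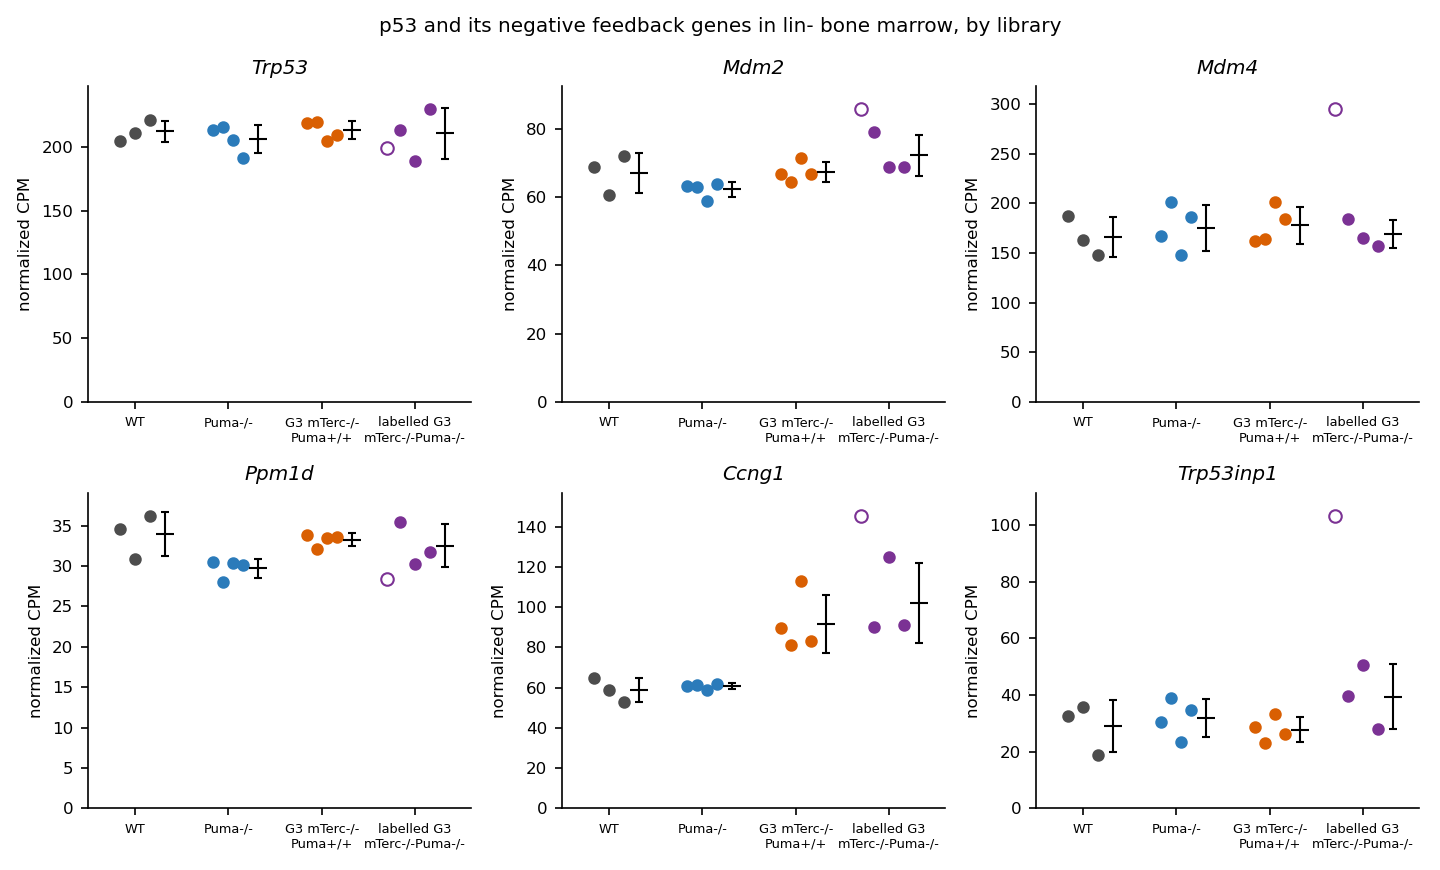
Normalized CPM of each member (y axes from 0) in every library by genotype, with the mean and SD of the libraries used as black bars. The open circle is replicate 2 of the labelled G3 mTerc-/-Puma-/-, which was left out of the tests. In the Ccng1 panel the 7 mTerc-/- libraries used lie at 81.4 CPM or above and the 7 mTerc+/+ libraries at 64.9 CPM or below.

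Per kilobase of annotated exon, Trp53 was the most abundant of the 6 in all groups. Its level was 52.1 ± 2.7 CPM per kilobase (SD, n = 14), and Ccng1 followed with 17.1 ± 1.1 (SD, n = 7) in mTerc+/+ and 27.4 ± 4.7 (SD, n = 7) in mTerc-/-. Mdm2 stood at 13.2 ± 1.0, Mdm4 at 11.7 ± 1.2, Ppm1d at 10.2 ± 0.75 and Trp53inp1 at 4.90 ± 1.3 CPM per kilobase (SD, n = 14 each). The intervals of 1 SD of Mdm2 and Mdm4 overlapped, as did those of Mdm4 and Ppm1d. These levels rest on the union of all annotated exons, which is long for Mdm4 (14798 bases) and may include exons not used in these cells.

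Ratios of reads between 2 members within a library do not depend on how libraries are scaled, and were added after the data were seen. There were 0.734 to 0.995 Ccng1 reads per Mdm2 read in the 7 mTerc+/+ libraries and 1.14 to 1.82 in the 7 mTerc-/- libraries, with no overlap. The difference was 0.57 on the log2 scale, with an exact permutation p of 0.000816 within Puma labels. The ratio of Ccng1 to Trp53 likewise did not overlap, with 0.239 to 0.323 against 0.371 to 0.661 (difference 0.67 on the log2 scale, exact permutation p = 0.000816). Mdm2 and Trp53 varied little, so both ratios restate the step in Ccng1 and are no independent support for it. The share of gene pairs without such overlap was not computed. By contrast Mdm2 per Trp53 read spanned 0.286 to 0.335 and 0.293 to 0.371 (difference 0.093, exact permutation p = 0.195). Mdm4 per Mdm2 read spanned 2.05 to 3.18 and 2.28 to 2.81 (difference -0.085, exact permutation p = 0.371). Between mTerc-/- and mTerc+/+ the balance of the 2 p53 inhibitors therefore differed by less than the spread of the libraries.

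**Figure D3:**
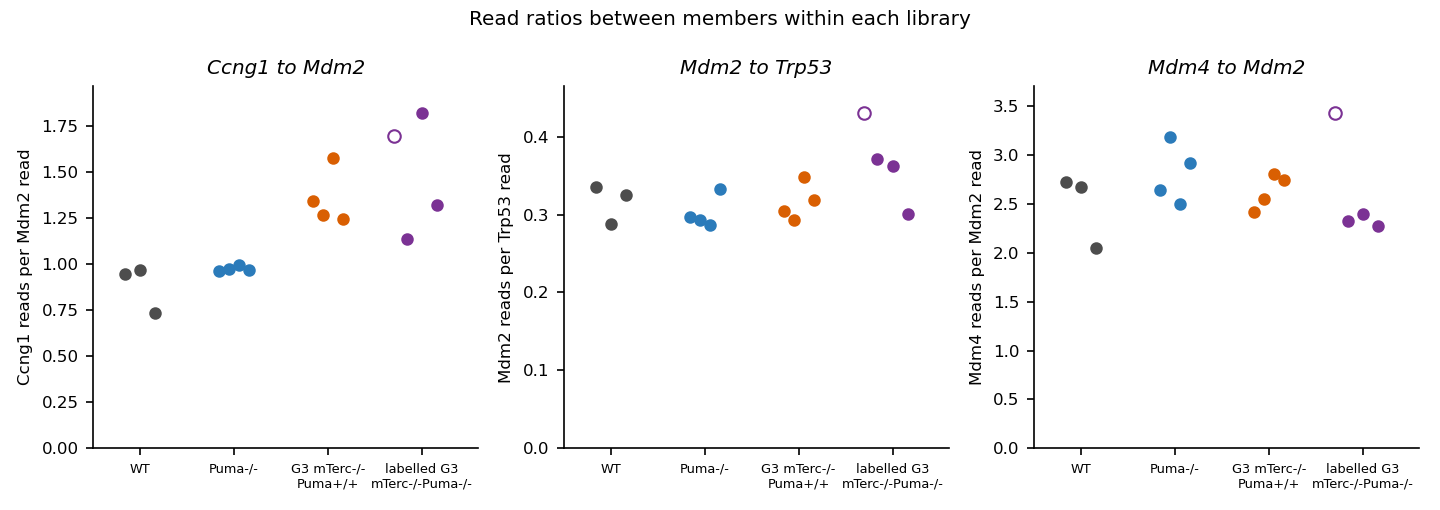
Reads of Ccng1 per Mdm2 read, Mdm2 per Trp53 read and Mdm4 per Mdm2 read (y axes from 0) in each library by genotype, with the library left out of the tests as an open circle. The 7 mTerc-/- libraries used lie above 1.1 in the first panel and the mTerc+/+ libraries below 1, whereas mTerc-/- and mTerc+/+ libraries overlap in the others.

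Whether the members go up and down together from library to library was examined over all 15 pairs of members. Libraries formed 2 clusters in Ccng1, so pooled correlations are given for the 10 pairs without it. Pearson's r of log2 CPM over 14 libraries ran from -0.56 for Trp53 and Trp53inp1 to 0.73 for Mdm2 and Ppm1d. The negative values depended on the scaling, since with library size alone the lowest of the 10 was -0.013 and Trp53 and Trp53inp1 had 0.017. Mdm2 and Ppm1d, ligase and phosphatase, were the 1 pair to pass, with r = 0.73 (permutation p = 0.00271, 0.0407 adjusted over 15 relations) and Spearman's rho = 0.71 (permutation p = 0.00542, 0.0813 adjusted). Leaving out the 2 libraries farthest from the median of Mdm2 gave r = 0.69, and deviations from genotype means gave r = 0.77. With the library left out of the tests, which had the highest Mdm2 (85.7 CPM) and a low Ppm1d (28.4 CPM), r was 0.23, so the relation rests on leaving it out.

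Inside the telomerase groups Ccng1 did not follow Mdm2, and its relation to Trp53 depended on the scaling. For Ccng1 and Mdm2, r was -0.25 in the 7 mTerc+/+ libraries (exact permutation p = 0.591) and 0.22 in the 7 mTerc-/- libraries (exact permutation p = 0.626). For Ccng1 and Trp53, r was -0.56 (exact permutation p = 0.189) and -0.78 (exact permutation p = 0.0317), but 0.29 and -0.38 with library size alone. For Ccng1 and Trp53inp1, r was 0.78 (exact permutation p = 0.0343) and 0.81 (exact permutation p = 0.031). For Ccng1 and Mdm4, r was 0.78 (exact permutation p = 0.0216) and 0.21 (exact permutation p = 0.634). These p-values are unadjusted, for 15 pairs in each cluster. As deviations from genotype means over 14 libraries, 4 of 15 pairs had a permutation adjusted p under the threshold. Mdm2 with Ppm1d (r = 0.77) had 0.0207. Trp53 with Ccng1 (r = -0.71), Mdm4 with Trp53inp1 (r = 0.70) and Ccng1 with Trp53inp1 (r = 0.70) had 0.0238 each. This permutation did not allow for the genotype means taken out, so its p-values may be too small and none is read as a pass.

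**Figure D4:**
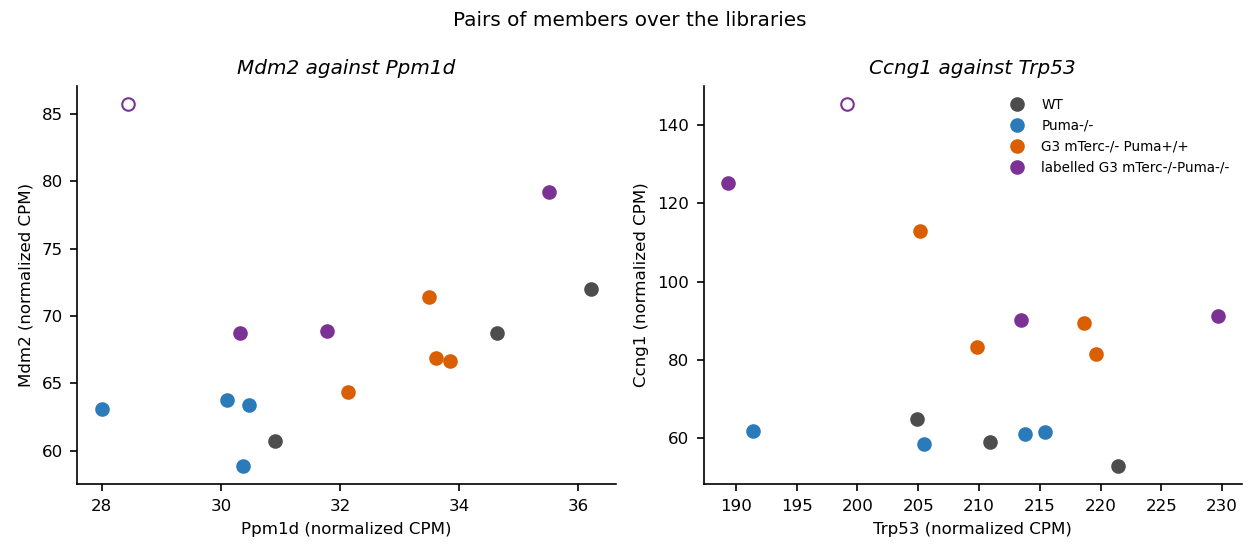
Normalized CPM of Mdm2 against Ppm1d and of Ccng1 against Trp53, 1 point per library, colored by genotype, with the library left out of the tests as an open circle. The axes do not start at 0. Mdm2 and Ppm1d vary together over the filled points (r = 0.73 on the log2 scale), and the 2 levels of Ccng1 occur over the same range of Trp53.

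The genes most like each member in pattern were taken as the 3 with the highest Pearson's r of log2 CPM over the 14 libraries, among 12955 others with a mean of at least 1 CPM. They were Zmat3 (r = 0.94), Phlda3 (0.93) and Inka2 (0.92) for Ccng1, the first 2 of which are in the list of p53 target genes described below. These r are pooled over the 2 clusters of Ccng1, so a gene with a like step by telomerase status ranks high through that step. For Mdm2 they were the ESCRT adaptor gene Pdcd6ip (0.90), the cell cycle inhibitor and p53 target Cdkn1a (0.85) and the retinoblastoma gene Rb1 (0.84). Trp53 was most like Tedc1 (0.93), the splicing factor gene Sf3a2 (0.92) and the DNA polymerase alpha subunit gene Pola2 (0.90). Ppm1d was most like the spindle checkpoint gene Bub1b (0.95), Wdr26 (0.93) and Msl2 (0.92), and Mdm4 like Fam208b (0.96), the cyclin gene Ccnt2 (0.96) and Brwd1 (0.93). Trp53inp1 had the least close neighbors, Socs2 (0.88), Tspyl4 (0.85) and Ttc12 (0.83).

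Outside the loop, Cdkn1a, the reference p53 target, had a larger fitted change than any member, a difference that was not tested. It stood at 22.0 to 56.3 CPM in WT, 23.5 to 26.8 CPM in Puma-/-, 37.5 to 77.5 CPM in G3 mTerc-/-Puma+/+ and 79.2 to 110.0 CPM in the labelled G3 mTerc-/-Puma-/-. The WT range overlapped that of G3 mTerc-/-Puma+/+, which the range of Ccng1 did not. The share of all genes without overlap between these groups was not computed. Neither gene passed in G3 mTerc-/-Puma+/+ against WT (edgeR adjusted p = 0.998 for Cdkn1a and 0.276 for Ccng1). Of 25 p53 target genes outside the loop, all tested, 4 rose in the averaged comparison, namely Cdkn1a by 1.21 (SE 0.19, adjusted p = 0.0167), the RNA-binding protein gene Zmat3 by 1.48 (SE 0.18, adjusted p = 0.00278), the AKT inhibitor gene Phlda3 by 1.98 (SE 0.22, adjusted p = 0.00137) and the death receptor gene Eda2r by 2.64 (SE 0.36, adjusted p = 0.00562) on the log2 scale, and none fell. Of all genes 0.263% passed in that comparison, in either direction. Of the list, 22 values were above 0 and the median was 0.21, beside 0.01 over all genes. The most abundant genes of the list were the caspase activator Apaf1 at 0.07 and the antiproliferative gene Btg2 at -0.21 (adjusted p = 0.866 and 0.85), and neither passed. The death effector gene Bax had 0.45 (SE 0.090, adjusted p = 0.0711). In the pairwise comparisons, 2 of the 25 passed as higher in G3 mTerc-/-Puma+/+ against Puma-/- (0.801% of all genes in either direction). In the labelled G3 mTerc-/-Puma-/-, 4 passed as higher against Puma-/- (0.306% of all genes) and 3 against WT (0.0632%). Bbc3, the gene targeted in Puma-/-, was among those in both comparisons against Puma-/-. This control is low in Bbc3 by its genotype, so these calls are not read as a response of a p53 target. The other gene that passed in G3 mTerc-/-Puma+/+ against Puma-/- was Cdkn1a (adjusted p = 0.0453). Bbc3 is also counted in the list for the averaged comparison and the interaction, which use the Puma-/- libraries. It was the 1 gene lower in Puma-/- against WT (-1.70, SE 0.27, adjusted p = 0.0276), where 0.079% of all genes passed. With edgeR 0 of the 25 passed in G3 mTerc-/-Puma+/+ against WT, 0 between the mTerc-/- groups and 0 for the interaction. An unadjusted p under 0.05 was found for 8, 3 and 7 of them, against 3.86%, 6.22% and 4.93% of all genes. The study drew p53 targets from these libraries, so this list is not independent of them.

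**Figure D5:**
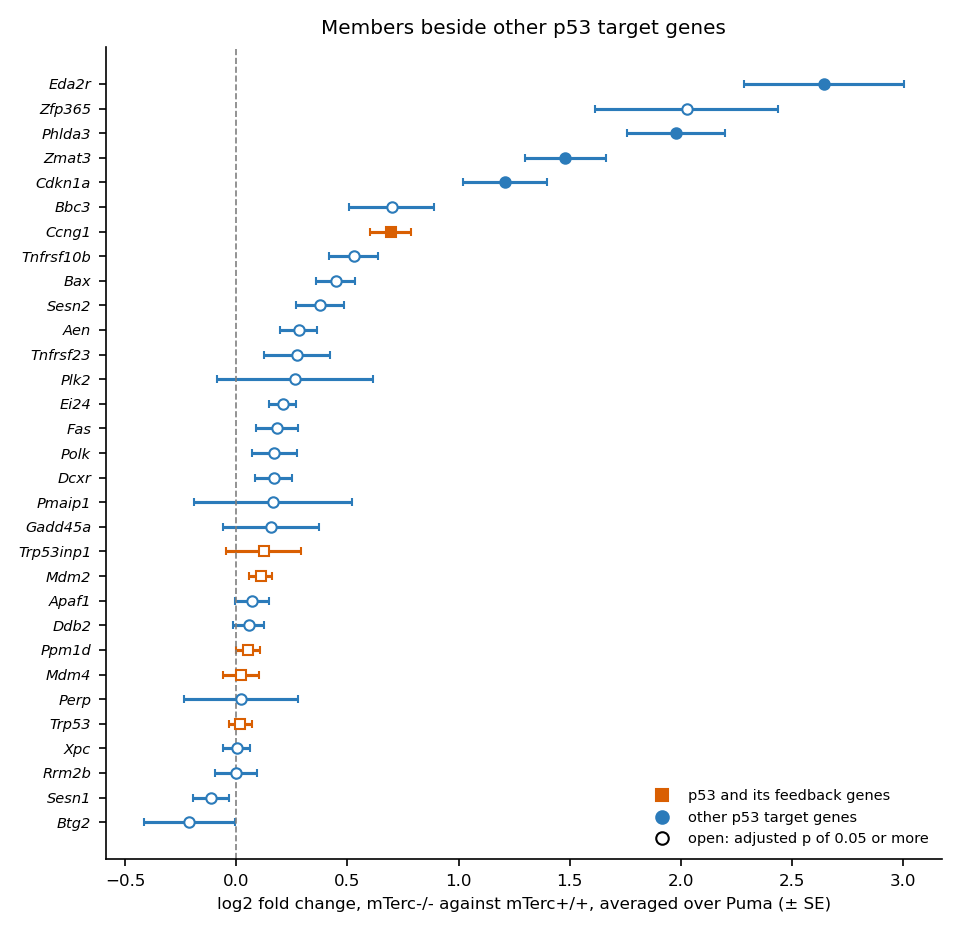
Log2 fold change of mTerc-/- against mTerc+/+, averaged over Puma, with its SE for the 6 members (orange squares) and 25 other p53 target genes (blue circles), ordered by value. Filled symbols passed the adjusted threshold of 0.05, which Ccng1 (0.69), Cdkn1a, Zmat3, Phlda3 and Eda2r did. Trp53, Mdm2, Mdm4, Ppm1d and Trp53inp1 lie between 0.018 and 0.12.

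Other genes of the p53 regulatory machinery gave no called gene with edgeR in any of the 8 comparisons. The 4 lists held at most 2 genes each with an unadjusted p under 0.05 in a comparison. Of all genes 3.86% to 17.1% had such a p, depending on the comparison, and 7.76% in the averaged one. Among 6 other p53-induced negative regulators, 1 had such a p in the averaged comparison, the ubiquitin ligase gene Siah1b at 0.27 (adjusted p = 0.579), and the most abundant was the ligase gene Cop1 at 0.054. Among 12 kinases, acetyltransferases and other activators 1 did, the ARF and p16 gene Cdkn2a at 0.89 (SE 0.40, adjusted p = 0.611), which averaged 0.545 CPM. The most abundant there was the ribosomal protein gene Rpl5, whose product binds MDM2, at 0.016. Among 9 deubiquitinases, ligases and deacetylases 0 did, with 0.012 for the most abundant, the MDM2 partner gene Trim28. Of 9 paralogues 8 were tested and 0 did, with 0.080 for the most abundant, the phosphatase gene Ppm1g. Ccng2, the closest relative of Ccng1, averaged 57.9 CPM and had a value of -0.043 (SE 0.12, adjusted p = 0.953), beside the 0.69 of Ccng1. The medians of these 4 lists in the averaged comparison lay between -0.021 and 0.05, beside 0.01 over all genes.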

How the data were processed

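RNA from lineage marker negative bone marrow cells of secondary recipients was sequenced as stranded, polyadenylated libraries. Per the labels and the study's methods, the authors trimmed reads with Trimmomatic 0.38, aligned them to mm10 (GRCm38) with STAR 2.5.2b and deposited raw counts of reads per Ensembl gene, 1 column per library. The annotation release and strand setting are not given in the sources used here. Groups came from the sample labels. Where nothing states that replicates came from separate animals, p-values measure only the spread between these libraries.

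Counts were fitted with edgeR 4.0.16 (R 4.3.3; filterByExpr, TMM scaling, quasi-likelihood test, 4 group means) over 14 libraries, with Benjamini-Hochberg adjustment over 18983 genes and a threshold of 0.05. This left out replicate 2 of the labelled G3 mTerc-/-Puma-/-, and the fit with all 15 was an alternative. The study used limma, and limma-voom (3.58.1) and DESeq2 (1.42.0) were alternatives, as were other scalings, filters, blocks, covariates and leaving out single libraries. The common biological coefficient of variation was 0.251. Log2 CPM used a prior count of 2. With at least 102790519 reads in each library, counting error is small beside the spread between libraries, and a count of 0 allows at most 0.0292 CPM (3 counts). Replicates differed by far more than sampling noise, so each counted as 1 sample. Exact permutation tests were two-sided over all splits (36 pairwise tests, 6 within Puma labels), unadjusted, and correlations used 100000 permutations (scipy 1.17.1) or all 5040 orders of 7 libraries.

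Gene symbols came from GENCODE vM21, which matched 45143 of 45706 identifiers. The fits were checked on simulated counts with known changes. The members and the lists of other genes were chosen with earlier results of these data known. Named genes were the 6 members, the targeted and sex genes, Cdkn1a, Wrap53, the 3 genes most like each member, list genes with an adjusted p under 0.05 (up to 5 a comparison) and at most 6 further list genes, the most abundant of their lists. Bax, Siah1b, Cdkn2a, Ccng2 and the pseudogenes were chosen after their values were seen.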

Additional observations from a re-analysis of the deposited data

Results flagged for a closer look

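Of 18 sets of 4 libraries examined for a library far from the other 3 (6 members in Puma-/-, G3 mTerc-/-Puma+/+ and all 4 libraries labelled G3 mTerc-/-Puma-/-, scaled with all 15 libraries), 2 held one by Dixon's test. Chance alone gives about 1 in 20. Mdm2 was low in Puma-/- replicate 3, at 59.1 CPM (gap over range 0.862). Ppm1d was low in Puma-/- replicate 2, at 28.1 CPM (0.847). Neither is the library left out of the tests.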

How the results depend on the processing

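Of 527 values recomputed under alternatives, 470 were classed as the same. For fold changes and exact p-values this means the same direction and side of the threshold, and for counts of members or relations an unchanged count. A call of Ccng1 enters both as a count and as a fold change, so these values are not independent. Ccng1 was the only member ever called. Its averaged change passed under all 23 alternatives, from 0.61 to 0.77 on the log2 scale, while all genes called there numbered 23 to 252 against 50. For G3 mTerc-/-Puma+/+ against Puma-/-, members called went from 1 to 0 with all 15 libraries, with library size alone (adjusted p of Ccng1 0.0824), with the replicate block (0.0887) and with Xist as a covariate, and lay between 0 and 0 when single libraries were left out. For the labelled G3 mTerc-/-Puma-/- against Puma-/-, they went to 0 with library size alone (0.0576), the replicate block (0.1) and Xist, and lay between 0 and 1 without single libraries. Against WT, DESeq2 called 1 member, Ccng1, in both mTerc-/- groups, and keeping genes with at least 1 count called 1 in the labelled G3 mTerc-/-Puma-/-. The cause of these changes was not tested.

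The replicate block changed no other call of a member. Replicate numbers did not pair the libraries, since deviations from group means correlated with a median of 0.020 in 18 same-numbered pairs (3 over 0.1) and of -0.017 in 55 others (13 over 0.1). The relations that passed numbered 3 with all 15 libraries, against 1, and Mdm2 with Ppm1d was not among them (adjusted permutation p = 0.482). They were Mdm4 with Trp53inp1 (0.0252), Mdm2 with Ccng1 (0.0309) and Ccng1 with Trp53inp1 (0.0309). The pairs with Ccng1 pool its clusters. None of them passed by Spearman's rho (adjusted permutation p = 0.112, 0.112 and 0.188). As deviations from genotype means 4 relations were under the threshold, by p-values that did not allow for the means taken out. Small differences that were never called changed sign when single libraries were left out. Ccng1 ranged from -0.028 to 0.11 for Puma-/- against WT, from -0.017 to 0.27 between the mTerc-/- groups and from -0.061 to 0.23 for the interaction. In the averaged comparison Trp53 ranged from -0.015 to 0.055 and Mdm4 from -0.021 to 0.062. Mdm4 was 0.14 there with all 15 libraries. Other scalings moved the median of all genes by less than 0.1, from 0.010 to 0.0096 and 0.014. With 3 or 4 libraries a group, the number of libraries and not depth limits the precision.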

Other observations

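The library left out of the tests, replicate 2 of the labelled G3 mTerc-/-Puma-/- (scaled with all 15 libraries), had the highest level of 4 of the 6 members among all 15. It stood at 145 CPM for Ccng1, 103 CPM for Trp53inp1, 294 CPM for Mdm4 and 85.7 CPM for Mdm2, against at most 125, 50.6, 201 and 79.2 CPM in the other 14. Trp53 and Ppm1d did not share this, with 199 CPM and 28.4 CPM inside the range of the others. Cdkn1a stood at 167 CPM there, against at most 110.0 CPM elsewhere. Its 6 neutrophil markers summed to 9783 CPM against at most 7064 CPM, beside the erythroid excess given above. Its progenitor markers (13822 against at most 12971 CPM) and T and NK markers (651 against at most 518 CPM) were also the highest. Its immediate early genes were the lowest (1103 against at least 1171 CPM). Its B lymphoid, megakaryocyte and macrophage markers lay inside the range of the others.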
